A study of Mus musculus with 4 samples.

Results

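The genes described here are the components of Wnt signalling whose transcripts were measured in cultured mouse keratinocytes: secreted ligands, their receptors and secretion factors, inhibitors, cytoplasmic effectors and nuclear factors. They were chosen by gene symbol, with earlier results of these data known, and 46 of the 13102 deposited genes matched. The keratinocytes, the main cells of the epidermis, were primary cells of neonatal C57BL/6 mice kept in culture for 48 h. There were 4 libraries, 1 per group. Cells of Il17rc knockout (KO) mice, cells of Il17rd KO mice and wild-type (WT) cells received IL-17A, a cytokine that drives skin inflammation, at a dose of 100 ng/mL for 8 h, and another library came from WT cells without it. Il17rc and Il17rd encode IL-17 receptor family members. Knockout cells without IL-17A were not analysed here, so genotype and its effect on the answer to IL-17A cannot be told apart. The sources used here do not give how many mice were behind each library or which cells the knockouts affect. Family genes such as Lef1, Dkk1, Wif1 and Lgr6 were not analysed here.

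Wnt ligands are lipid-modified secreted proteins. The acyltransferase Porcupine attaches the lipid and the carrier Wntless takes the ligand to the cell surface, where it binds a Frizzled receptor together with Lrp5 or Lrp6. In the canonical branch the signal passes through Dishevelled, holds back the Axin, Apc and Gsk3b complex that destroys beta-catenin, and lets beta-catenin act with Tcf and Lef factors on target genes. In skin, Wnt signals are known for the formation and cycling of hair follicles and for the upkeep of basal epidermal cells.

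Total counts ranged from 19711866 to 19904695 per library. Il17rd, the targeted gene, had 5 counts in the Il17rd KO library, against 150, 265 and 252 in the Il17rc KO, IL-17A WT and untreated WT libraries. Il17rc had 439 counts in the Il17rc KO library, against 1718, 1152 and 2729 in the Il17rd KO, IL-17A WT and untreated WT libraries, so some Il17rc reads were counted in its own knockout. The basal keratins Krt5 and Krt14, which define keratinocytes, were abundant in every library, at 301441 to 390468 and 195461 to 234728 counts. Levels are given as CPM, counts relative to library size after scaling with TMM, a method that equalises the bulk of genes between libraries. Levels of different genes are compared only as FPKM, which also divides by gene length. A gene is called higher or lower where it differed by at least 2-fold between libraries and the exact 95% counting interval of that ratio, given in parentheses, excluded 1. With 1 library per group there is no replicate check and no p-value, and the interval covers counting error only, so a call describes 2 libraries and not the conditions. In bulk RNA, fewer cells of a type and less RNA per cell cannot be told apart.

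More Wnt pathway genes were called lower than higher in IL-17A WT relative to untreated WT, Wnt4, Wnt16, Sostdc1 and Apcdd1 among them, and some of these were higher in the knockout libraries than in IL-17A WT. Most of the 46 genes were not called in any single comparison. Of the 46 genes, 14 (30.4%) were called lower and 3 (6.52%) were called higher with IL-17A in WT cells, where 10.7% and 8.97% of all 12934 genes that the rule was applied to were called lower and higher, 19.7% in either direction. In the Il17rc KO library 7 genes (15.2%) were higher and 6 (13.0%) lower than in IL-17A WT, against 6.22% and 4.84% of all genes (11.1% in either direction). The Il17rd KO library had 8 genes (17.4%) higher and 4 (8.70%) lower than IL-17A WT, against 6.27% and 3.73% of all genes (10.0% in either direction). Both knockout comparisons share the IL-17A WT library with the first. The median log2 ratio of the 46 genes was -0.40 in IL-17A WT over untreated WT, where that of all genes was 0.0041, and 0.13 and 0.26 in Il17rc KO and Il17rd KO over IL-17A WT, where that of all genes was 0.042 and 0.011. All 46 genes passed the filter of a mean of 1 CPM, but Wnt16, Lgr5, Fzd4 and Wnt3a lay under 1 CPM in at least 1 library, and a gene that reaches the tables through its high libraries is bound to differ.

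**Figure D1:**
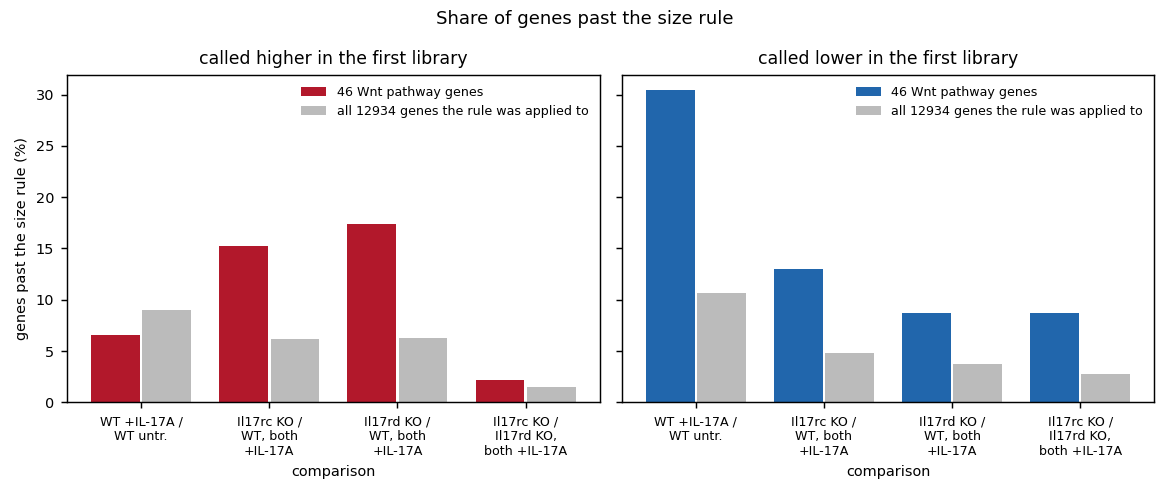
Percent of genes called higher (left panel) and lower (right panel) in the first library of each comparison, for the 46 Wnt pathway genes (coloured bars) and all 12934 genes the rule was applied to (grey bars). The tallest bar is the 30.4% of Wnt pathway genes lower in IL-17A WT than untreated WT, beside 10.7% of all genes.

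By role, ligands were called more than Frizzled and Lrp receptors or cytoplasmic components. Among the 12 ligands, 8 (66.7%) were called between IL-17A WT and untreated WT, 2 higher and 6 lower, where 19.7% of all genes were called. Among the 11 Frizzled and Lrp receptors 1 was called, among the 9 cytoplasmic components 1, and among the 5 inhibitors 2. Of the 4 genes of R-spondin receptors and receptor turnover 3 (75%) were called, of the 2 secretion factors 1, and of the 3 nuclear factors 1. In all, 22 of the 46 genes were called in at least 1 of the comparisons named so far or between the knockouts. In none, also not against untreated WT, were 24 called. The share of all genes called over these comparisons together was not computed, so these counts cannot be set against it. A run of 6 genes, Wnt3, Wnt4, Wnt6, Wnt16, Apcdd1 and Sostdc1, was lower in IL-17A WT than untreated WT and higher in both knockouts than in IL-17A WT. Wnt7a alone had the mirror pattern in all 3 comparisons. The IL-17A WT library is part of all 3, so a low or high value there enters each of them. How many of all genes had either pattern was not computed.

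**Figure D2:**
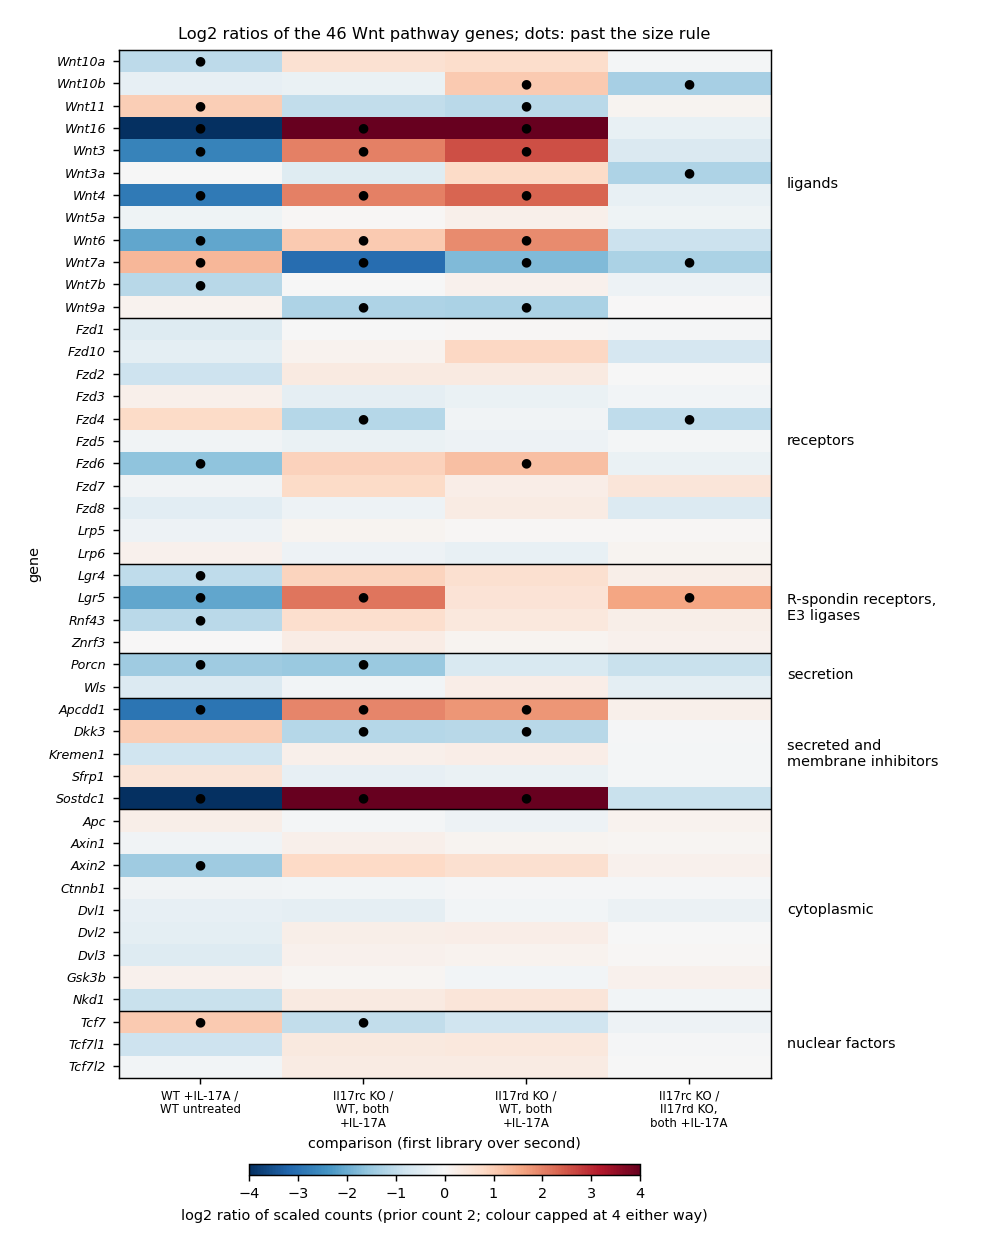
Log2 ratios (prior count 2) of the 46 genes, in rows by role, for 4 comparisons in columns; red is higher and blue lower in the library named first, and dots mark calls. Ligands, inhibitors and the R-spondin receptor group hold most dots, and the cytoplasmic group holds 1, Axin2.

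Wnt4, a ligand made by many epithelia, was the most abundant ligand by mean FPKM and among those that differed most. It stood at 273 CPM in Il17rc KO, 338 CPM in Il17rd KO, 67.4 CPM in IL-17A WT and 479 CPM in untreated WT. The IL-17A WT library was the low one, 7.10-fold (6.70 to 7.53) below untreated WT, and the knockouts were 4.04-fold (3.81 to 4.30) and 5.01-fold (4.73 to 5.32) above IL-17A WT. Wnt16, a ligand known for its role in bone and expressed in epidermis, had 141, 177, 5 and 622 counts in Il17rc KO, Il17rd KO, IL-17A WT and untreated WT. It was 127-fold (54.1 to 392) lower in IL-17A WT than untreated WT, the widest gap of any of the 46 genes in any comparison. Unlike Wnt4, whose knockout levels came within 2-fold of untreated WT, Wnt16 stayed 4.61-fold (3.84 to 5.58) lower in Il17rc KO and 3.76-fold (3.18 to 4.47) lower in Il17rd KO than in untreated WT.

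Wnt3, a canonical ligand of the skin epithelium, had 22.4 CPM in Il17rc KO, 33.4 CPM in Il17rd KO, 5.47 CPM in IL-17A WT and 35.4 CPM in untreated WT. The Il17rd KO and untreated WT libraries were nearly level, with a ratio of 1.06-fold (0.954 to 1.18) whose interval includes 1, while IL-17A WT was 6.48-fold (5.28 to 8.02) below untreated WT. Wnt6 was a scarce ligand, with 59, 111, 27 and 117 counts in Il17rc KO, Il17rd KO, IL-17A WT and untreated WT. It was 4.42-fold (2.89 to 6.995) lower in IL-17A WT than untreated WT and 3.92-fold (2.55 to 6.21) higher in Il17rd KO than in IL-17A WT. The Il17rc KO library lay between, 2.13-fold (1.33 to 3.50) above IL-17A WT and 2.07-fold (1.504 to 2.89) below untreated WT, the last no longer called with library totals in place of TMM sizes.

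Wnt10a and Wnt7b, abundant epidermal ligands, were lower in IL-17A WT by smaller ratios, and no knockout library was called against IL-17A WT. Wnt10a, whose gene is mutated in human tooth and skin appendage disorders, had 131, 139, 86.0 and 177 CPM in Il17rc KO, Il17rd KO, IL-17A WT and untreated WT, and was 2.06-fold (1.94 to 2.19) lower in IL-17A WT than untreated WT. For Wnt7b the 3 libraries given IL-17A were alike, at 84.6, 96.4 and 86.1 CPM in Il17rc KO, Il17rd KO and IL-17A WT, against 185 CPM in untreated WT. It was 2.15-fold (2.03 to 2.28) lower in IL-17A WT than untreated WT. The exons of Wnt7b overlap those of AU022754 on the opposite strand over 6.62% of their length, and the sources used here do not say whether the counting used strand.

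Wnt7a was the ligand that ran the other way. It had 10.8 CPM in Il17rc KO, 26.1 CPM in Il17rd KO, 89.1 CPM in IL-17A WT and 35.3 CPM in untreated WT. The IL-17A WT library was the highest, 2.53-fold (2.31 to 2.76) above untreated WT, and Il17rc KO and Il17rd KO lay 8.27-fold (7.17 to 9.57) and 3.41-fold (3.09 to 3.76) below IL-17A WT. Il17rc KO was also 3.27-fold (2.80 to 3.83) below untreated WT, whereas Il17rd KO, 1.35-fold (1.20 to 1.51) below it, was not called. Wnt7b, its closest relative among the ligands, had its high level in untreated WT instead.

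Wnt9a levels fell into a pair of low knockout libraries and a pair of high WT libraries. Its levels were 22.6 and 22.5 CPM in Il17rc KO and Il17rd KO, against 53.7 and 48.1 CPM in IL-17A WT and untreated WT. The knockouts were 2.38-fold (2.13 to 2.66) and 2.39-fold (2.14 to 2.67) below IL-17A WT, and IL-17A WT was 1.11-fold (1.02 to 1.22) above untreated WT. Wnt10b, a canonical ligand of the hair follicle, was high in the Il17rd KO library, at 46.4 CPM, against 18.5 CPM in Il17rc KO, 22.3 CPM in IL-17A WT and 28.2 CPM in untreated WT. It was 2.08-fold (1.86 to 2.33) higher in Il17rd KO than in IL-17A WT and 1.21-fold (1.05 to 1.39) lower in Il17rc KO than in IL-17A WT.

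The remaining ligands were scarce. Wnt11, a ligand of the non-canonical branch, had 56, 53, 109 and 53 counts in Il17rc KO, Il17rd KO, IL-17A WT and untreated WT. IL-17A WT stood 2.01-fold (1.44 to 2.85) above untreated WT, Il17rd KO was called at 2.16-fold (1.54 to 3.06) below IL-17A WT, and Il17rc KO, at 1.99-fold (1.43 to 2.80) below it, was not, so these calls turn on a few counts. Wnt11 shares 8.80% of its exon length with the pseudogene Gm8398 on the opposite strand. Wnt3a had 17, 44, 24 and 24 counts in the same libraries. Wnt5a, the best known non-canonical ligand, had 8.48, 9.49, 8.28 and 9.39 CPM and was called in no comparison.

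**Figure D3:**
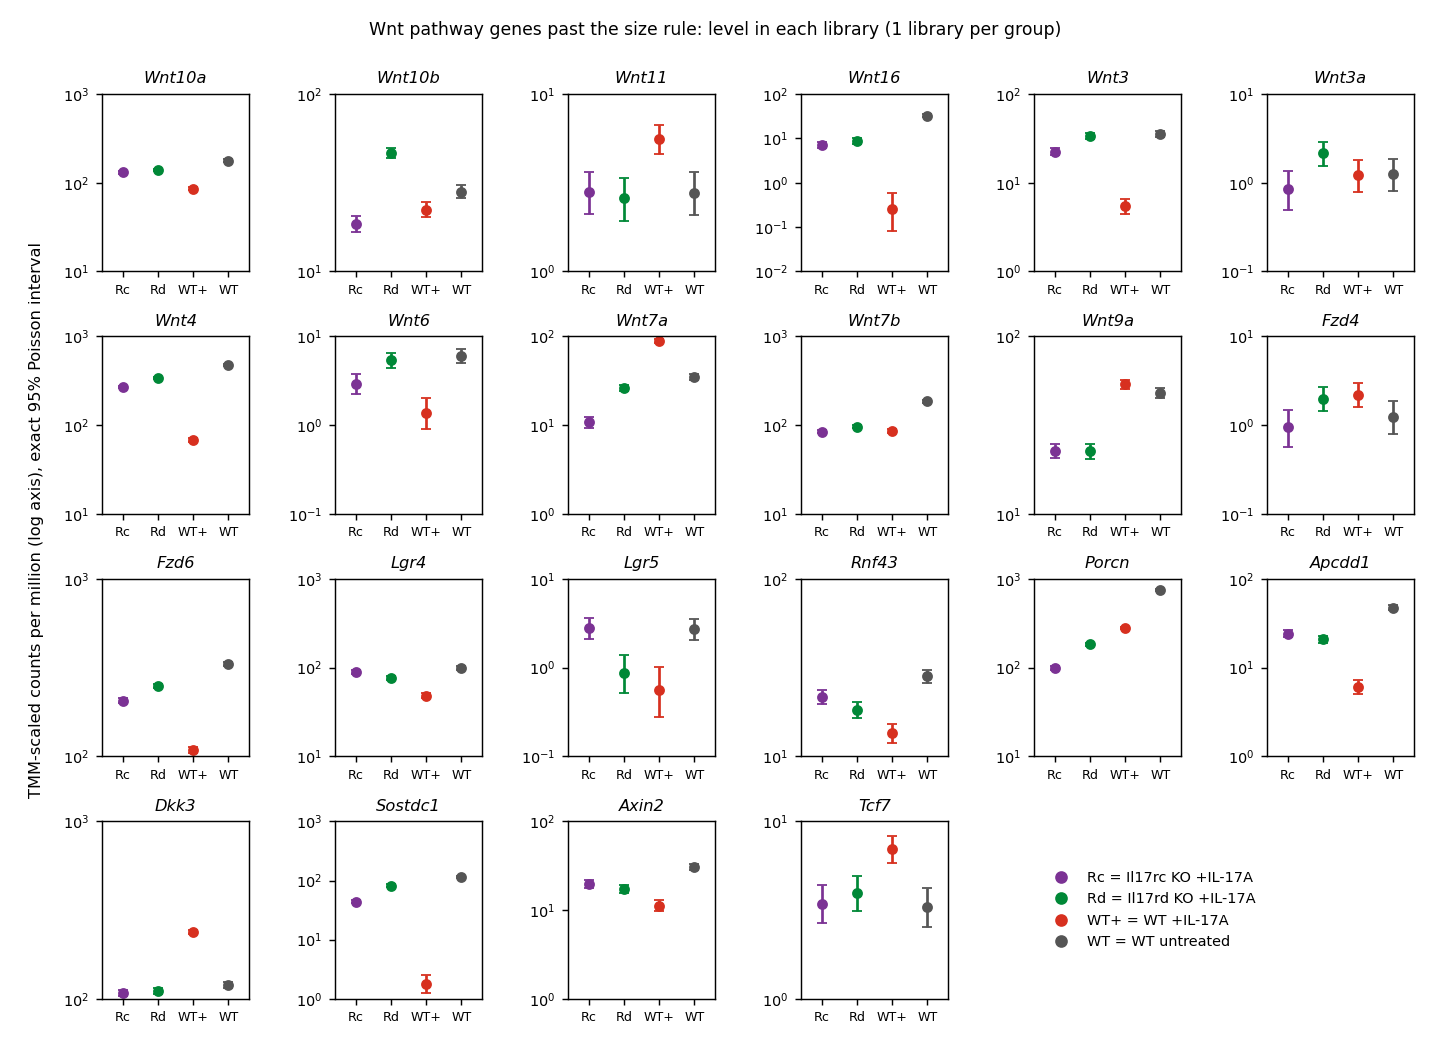
Level of each of the 22 called genes in the 4 libraries (points, CPM on log axes that differ between panels) with exact 95% Poisson intervals, which cover counting error only. IL-17A WT is the lowest point for Wnt4, Wnt16, Wnt3, Wnt6, Apcdd1 and Sostdc1 and the highest for Wnt7a, Wnt11, Dkk3 and Tcf7.

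Summed over the 12 ligands, the deposited FPKM came to 167 in Il17rc KO, 211 in Il17rd KO, 129 in IL-17A WT and 289 in untreated WT. IL-17A WT therefore held the smallest ligand pool and untreated WT the largest. Its make-up differed too. Wnt4 gave 38.8% of the pool in Il17rc KO and 38.1% in Il17rd KO, against 12.4% in IL-17A WT and 39.4% in untreated WT. Wnt7a gave 2.03% in Il17rc KO and 3.89% in Il17rd KO, against 21.7% in IL-17A WT and 3.84% in untreated WT. Wnt10a gave 31.6% in Il17rc KO, 26.6% in Il17rd KO, 26.9% in IL-17A WT and 24.8% in untreated WT, and led the pool of the IL-17A WT library. Such shares treat the transcripts of all ligands alike and say nothing of protein.

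**Figure D4:**
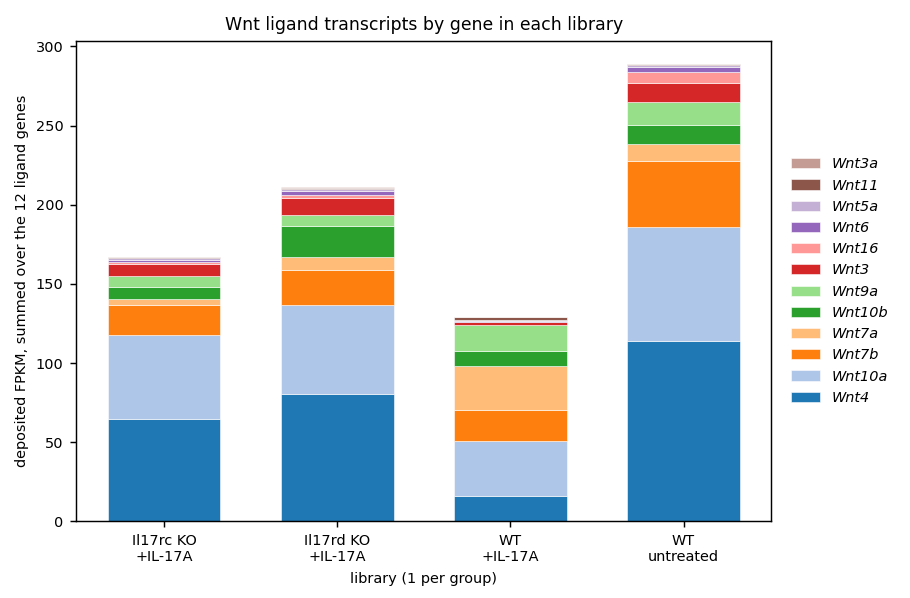
Deposited FPKM of the 12 ligand genes, stacked for each library. The bar of IL-17A WT is the shortest, at 129 FPKM against 289 FPKM in untreated WT, with a small Wnt4 segment and a large Wnt7a segment.

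The promoter stretches of the 4 ligands with the clearest gaps that the RefSeq table of GRCm38.p6 holds are shown because 3 of them share the low level in IL-17A WT and Wnt7a has the opposite pattern. They are given on the strand of the gene, from 250 bases before the RefSeq transcript start up to the earlier of the RefSeq and GENCODE M21 starts, and capitals mark CG dinucleotides. Wnt16 lies at chr6:22287977-22288226 on the plus strand, Wnt4 at chr4:137277385-137277488 on the plus strand, Wnt3 at chr11:103773925-103774149 on the plus strand and Wnt7a at chr6:91411364-91411603 on the minus strand.
Wnt16: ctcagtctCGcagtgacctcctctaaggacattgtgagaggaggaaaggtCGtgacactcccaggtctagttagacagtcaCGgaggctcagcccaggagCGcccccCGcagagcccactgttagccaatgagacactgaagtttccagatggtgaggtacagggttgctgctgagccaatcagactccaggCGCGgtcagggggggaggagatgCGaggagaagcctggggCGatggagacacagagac
Wnt4: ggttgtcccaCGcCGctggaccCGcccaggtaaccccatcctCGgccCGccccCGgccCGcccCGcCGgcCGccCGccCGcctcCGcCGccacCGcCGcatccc
Wnt3: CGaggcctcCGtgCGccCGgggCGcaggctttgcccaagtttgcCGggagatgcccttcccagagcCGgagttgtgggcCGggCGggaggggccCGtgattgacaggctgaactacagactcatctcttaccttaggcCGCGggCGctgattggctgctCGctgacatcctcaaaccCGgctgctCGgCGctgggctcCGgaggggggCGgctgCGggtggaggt
Wnt7a: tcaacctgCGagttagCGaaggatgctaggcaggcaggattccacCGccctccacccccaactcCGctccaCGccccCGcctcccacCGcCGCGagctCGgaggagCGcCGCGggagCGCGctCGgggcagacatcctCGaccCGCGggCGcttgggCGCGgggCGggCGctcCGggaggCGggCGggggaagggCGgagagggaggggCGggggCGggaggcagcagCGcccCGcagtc
Within the full 250 bases before the start there were 9 CG dinucleotides for Wnt16, 44 for Wnt4, 22 for Wnt3 and 34 for Wnt7a, where the median over 12174 windows of deposited genes was 16. The 3 ligands that shared the low level thus ranged from few CG dinucleotides to many, and Wnt7a lay among them. No more than 9 were found in 28.0% of those windows, and 44 or fewer in 99.2%. Promoter windows of 300 bases, from 250 before to 50 after the start, were on hand for 27 of the 46 genes, in 32 windows. The letters CTTTGAT or CTTTGAA, which Tcf and Lef factors recognise, occurred on either strand in 1 of these windows (3.13%), that of Wnt11, against 5.82% of the windows of deposited genes and 8.65% of all 32851 windows. The AP-1 letters TGANTCA occurred in 1 (3.13%), that of Dvl2, against 5.36% and 7.81%. A match is a description, and its absence says only that these letters are not in the window.

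Among the 46 genes 3 pairs are neighbours less than 100000 bases apart in GENCODE M21. Wnt6 (chromosome 1, 74771892 to 74785322, plus strand) ends 6193 bases before Wnt10a (74791516 to 74804179, plus strand), and both had their lowest level in IL-17A WT and their highest in untreated WT. Wnt3a (chromosome 11, 59248033 to 59290752, minus strand) and Wnt9a (59306928 to 59333552, plus strand) lie 16175 bases apart on opposite strands. Wnt9a was called lower in both knockouts than in IL-17A WT, and Wnt3a in neither, at 1.45-fold lower (0.745 to 2.87) in Il17rc KO and 1.75-fold higher (1.04 to 3.004) in Il17rd KO. Kremen1 and Znrf3, 14765 bases apart on chromosome 11, were called in no comparison.

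Of the secretion factors, Porcn, the gene for Porcupine, was second in mean FPKM among the 46 genes and had a level of its own in each library. It stood at 99.4 CPM in Il17rc KO, 183 CPM in Il17rd KO, 277 CPM in IL-17A WT and 748 CPM in untreated WT. IL-17A WT was 2.70-fold (2.62 to 2.78) below untreated WT, and Il17rc KO a further 2.79-fold (2.65 to 2.94) below IL-17A WT. Against untreated WT, Il17rc KO was 7.53-fold (7.18 to 7.89) and Il17rd KO 4.09-fold (3.95 to 4.24) lower, so that, unlike Wnt3 and Wnt4, Porcn was not higher in the knockouts than in IL-17A WT. Porcn lies on chromosome X (8193848 to 8206525, minus strand), and the libraries differed in sex-linked genes: Xist had 2668, 8513, 4750 and 2420 counts, and the Y-linked Ddx3y 749, 2, 233 and 654 counts, in Il17rc KO, Il17rd KO, IL-17A WT and untreated WT. Their part in the Porcn result was not tested. Wls, the gene for Wntless, was steadier, at 261, 341, 281 and 409 CPM in the same libraries, and was not called.

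Among the Frizzled and Lrp receptors, Fzd6 had the highest level and was the only one called between IL-17A WT and untreated WT. Fzd6, known for orienting hair follicles through planar cell polarity, had 206 CPM in Il17rc KO, 249 CPM in Il17rd KO, 108 CPM in IL-17A WT and 330 CPM in untreated WT. The low library was IL-17A WT, 3.05-fold (2.90 to 3.20) below untreated WT. Il17rd KO was 2.30-fold (2.19 to 2.42) above IL-17A WT, and Il17rc KO, at 1.90-fold (1.80 to 2.0005), just missed the threshold. Fzd6 gave 46.3% of the summed FPKM of the 9 Frizzled genes in Il17rc KO, 51.4% in Il17rd KO, 35.2% in IL-17A WT and 54.6% in untreated WT.

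The other receptors differed little. Fzd2, next in FPKM, had 64.2, 64.6, 50.2 and 90.2 CPM in Il17rc KO, Il17rd KO, IL-17A WT and untreated WT and was 1.80-fold (1.66 to 1.94) lower in IL-17A WT than untreated WT, under the threshold. Fzd7 had 79.2 CPM in Il17rc KO and 56.5, 46.7 and 51.2 CPM in Il17rd KO, IL-17A WT and untreated WT, and the Il17rc KO library was 1.70-fold (1.56 to 1.84) above IL-17A WT. Fzd4, at 19, 41, 43 and 24 counts in that order, was called lower in Il17rc KO than in IL-17A WT, 2.32-fold (1.32 to 4.21), on few counts. Fzd1, Fzd3, Fzd5, Fzd8 and Fzd10 were called in no comparison, the widest ratio among them being that of Fzd10, 1.77-fold (1.52 to 2.07) higher in Il17rd KO than in IL-17A WT. The co-receptors Lrp5 and Lrp6 stayed within 1.24-fold over all 4 libraries, at 117 to 133 CPM and 121 to 150 CPM.

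Receptor turnover genes leaned low in IL-17A WT. Rnf43 and Znrf3 encode ubiquitin ligases that remove Frizzled from the cell surface, and Lgr4 and Lgr5 are receptors of R-spondins, which block those ligases. Lgr4 had 89.5 CPM in Il17rc KO, 75.6 CPM in Il17rd KO, 48.4 CPM in IL-17A WT and 98.5 CPM in untreated WT, and was 2.03-fold (1.88 to 2.20) lower in IL-17A WT than untreated WT, a call lost with library totals. Rnf43 had 433, 375, 264 and 543 counts in Il17rc KO, Il17rd KO, IL-17A WT and untreated WT, and was 2.10-fold (1.81 to 2.44) lower in IL-17A WT than untreated WT. Znrf3 was level, at 428 and 413 counts in IL-17A WT and untreated WT, 1.02-fold (0.885 to 1.16) apart. Lgr5, a marker of hair follicle stem cells, was the least abundant of the 46 genes by FPKM, with 56, 18, 11 and 52 counts in Il17rc KO, Il17rd KO, IL-17A WT and untreated WT. It was 4.97-fold (2.58 to 10.5) higher in Il17rc KO than in IL-17A WT, and Il17rd KO, at 1.56-fold (0.697 to 3.65), was not called.

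Sostdc1, a secreted protein that holds back Wnt and bone morphogenetic protein signalling, known from hair follicle and tooth development, had 44.0 CPM in Il17rc KO, 81.7 CPM in Il17rd KO, 1.79 CPM in IL-17A WT and 115 CPM in untreated WT. Its 35 counts in IL-17A WT stood against 883 to 2212 in the other libraries, 64.5-fold (46.2 to 92.9) below untreated WT. In the knockouts it was 24.6-fold (17.6 to 35.6) and 45.7-fold (32.7 to 65.8) above IL-17A WT for Il17rc KO and Il17rd KO. Apcdd1, a membrane inhibitor whose gene is mutated in a human hereditary hair loss, had 24.0, 20.8, 6.08 and 47.3 CPM in Il17rc KO, Il17rd KO, IL-17A WT and untreated WT. It was 7.77-fold (6.41 to 9.49) lower in IL-17A WT than untreated WT, and Il17rc KO and Il17rd KO were 3.94-fold (3.22 to 4.86) and 3.43-fold (2.79 to 4.24) above IL-17A WT.

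Dkk3, a divergent Dickkopf family member whose effect on Wnt signalling depends on the setting, went the other way. IL-17A WT stood out at 238 CPM, against 108, 110 and 119 CPM in Il17rc KO, Il17rd KO and untreated WT. The knockouts were 2.21-fold (2.10 to 2.33) and 2.16-fold (2.05 to 2.27) below IL-17A WT. IL-17A WT was 1.998-fold (1.90 to 2.10) above untreated WT, which just missed the threshold and passed it with library totals or RLE size factors. Kremen1, a receptor of Dickkopf proteins, had 94.4, 99.2, 82.4 and 143 CPM in Il17rc KO, Il17rd KO, IL-17A WT and untreated WT, and Sfrp1, a secreted Frizzled-like inhibitor, had 42 to 62 counts, and neither was called.

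Core cytoplasmic genes differed little. Ctnnb1, the gene for beta-catenin, had the highest mean FPKM of the 46 genes and stood at 721, 745, 772 and 844 CPM in Il17rc KO, Il17rd KO, IL-17A WT and untreated WT, at most 1.17-fold apart. Axin1 had 1515, 1471, 1291 and 1388 counts in the same libraries. Apc, Axin1 and Gsk3b, which make up the destruction complex, were each at most 1.19-fold apart over the 4 libraries. Dvl1, Dvl2 and Dvl3, the Dishevelled genes, lay 1.26-fold to 1.44-fold lower in IL-17A WT than untreated WT and were not called. Exons of Ctnnb1 and Dvl2 overlap those of Ulk4 and Acadvl on the opposite strand over 14.6% and 18.3% of their length.

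Axin2 and Nkd1, negative regulators of the pathway that are themselves textbook targets of beta-catenin, were the cytoplasmic genes that moved furthest. Axin2 had 395, 359, 220 and 584 counts in Il17rc KO, Il17rd KO, IL-17A WT and untreated WT. It was 2.71-fold (2.32 to 3.18) lower in IL-17A WT than untreated WT, and Il17rc KO and Il17rd KO lay between, 1.75-fold (1.48 to 2.08) and 1.55-fold (1.31 to 1.85) above IL-17A WT. Nkd1, at 47, 52, 35 and 65 counts, had the same order of IL-17A WT and untreated WT, 1.90-fold (1.24 to 2.95) apart, without a call. Of the nuclear factors, Tcf7 had 69, 81, 136 and 63 counts and was 2.11-fold (1.56 to 2.90) higher in IL-17A WT than untreated WT. It was 2.02-fold (1.501 to 2.74) lower in Il17rc KO than in IL-17A WT, a call lost with library totals. Tcf7l1, a transcriptional repressor active in epidermal progenitors, had 332 counts in IL-17A WT and 582 in untreated WT, 1.79-fold (1.56 to 2.05) lower. Tcf7l2 had 209 and 220, 1.07-fold (0.885 to 1.30) lower.

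Most Wnt pathway genes were not called between the knockout libraries, but the share called, 10.9%, was above the 4.24% of all genes. Between Il17rc KO and Il17rd KO, 1 of the 46 genes (2.17%) was higher and 4 (8.70%) were lower, against 1.49% and 2.75% of all genes (4.24% in either direction). Wnt10b was 2.52-fold (2.23 to 2.85), Wnt7a 2.43-fold (2.07 to 2.86), Wnt3a 2.53-fold (1.42 to 4.72) and Fzd4 2.11-fold (1.20 to 3.84) lower in Il17rc KO than in Il17rd KO, the last pair on 17 and 19 counts in Il17rc KO. Lgr5 was 3.19-fold (1.85 to 5.76) higher in Il17rc KO. Sostdc1 and Porcn lay just under the threshold, 1.85-fold (1.71 to 2.01) and 1.84-fold (1.74 to 1.94) lower in Il17rc KO. All 3 ligands called here were lower in Il17rc KO, and 0 of the 5 inhibitors and 0 of the 9 cytoplasmic genes were called. With 4.24% of all genes called, 0 calls in groups this small say little about them.

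Set against untreated WT, neither knockout library had a Wnt pathway gene called higher, while 7.27% of all genes were called higher in Il17rc KO and 5.36% in Il17rd KO, and 14.3% and 8.71% in either direction. Lower were 7 of the 46 genes (15.2%) in Il17rc KO, against 7.0% of all genes, and 5 (10.9%) in Il17rd KO, against 3.35%. Porcn, Wnt16 and Wnt9a were among the lower genes in each. Il17rc KO added Sostdc1, 2.62-fold (2.42 to 2.84), Wnt7a, Wnt6 and Wnt7b, the last 2.19-fold (2.07 to 2.32), and Il17rd KO added Apcdd1, 2.27-fold (2.02 to 2.55), and Lgr5, 3.10-fold (1.78 to 5.62). In Il17rc KO, Apcdd1 was 1.97-fold (1.76 to 2.21) lower, just outside the rule. In Il17rd KO the Wnt9a call, 2.14-fold (1.91 to 2.40), was lost with library totals.

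Other components of the pathway were taken from a list of 64 further symbols, of which 54 were in the tables. In IL-17A WT 5 were higher and 8 lower than in untreated WT, 24.1% of the list where 19.7% of all genes were called, and the median log2 ratio was -0.040. The 4 with the widest log2 ratios were Trabd2b, a protease that inactivates Wnt ligands, at 2.43, Gpc4, a glypican co-receptor, at -2.39, Dact3, a Dishevelled-binding family gene, at -1.71, and the Naked family gene Nkd2, at 1.68. Trabd2b had 649, 171, 426 and 76 counts in Il17rc KO, Il17rd KO, IL-17A WT and untreated WT, and was 3.89-fold (3.28 to 4.63) higher in Il17rc KO than in Il17rd KO, the only call of the list between the knockouts. The shares called in the knockouts against IL-17A WT were near those of all genes, 11.1% against 11.1% in Il17rc KO and 9.26% against 10.0% in Il17rd KO. In Il17rc KO 3 were higher and 3 lower, with Gpc6 at 1.71, Nkd2 at -1.53, Wisp1 at -1.52 and Dact2 at 1.44, and in Il17rd KO 3 were higher and 2 lower, with Gpc4 at 1.44, Trabd2b at -1.38, Dact3 at 1.13 and the co-repressor gene Tle3 at 1.10.

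Of 34 measured genes of the planar cell polarity and calcium branches, 1 was higher and 3 were lower with IL-17A in WT cells, 11.8% of the list against 19.7% of all genes. In each knockout 5.88% were called against IL-17A WT, where 11.1% and 10.0% of all genes were called in Il17rc KO and Il17rd KO. These shares lay below those of all genes. The polarity cadherin gene Celsr2 and its relative Celsr1 were at log2 ratios of -2.04 and -1.08, Prickle3 at -1.23, and Ror1, a receptor of Wnt5a, at 1.89. Celsr2 was higher in both knockouts than in IL-17A WT, at 1.38 in Il17rc KO and 1.32 in Il17rd KO. Vangl1 was the other gene higher in Il17rc KO, at 1.05, and Ror1 the gene lower in Il17rd KO, at -1.47. Between the knockouts none of the 34 was called.

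Genes known as targets of beta-catenin did not move together. Of 29 measured targets, which include Axin2, Apcdd1, Lgr5, Rnf43, Tcf7, Nkd1 and Znrf3 of the 46 genes, 8 were higher and 10 lower with IL-17A in WT cells, 62.1% of the list against 19.7% of all genes, and the median log2 ratio was -0.074. The widest log2 ratios were those of Plaur, the urokinase receptor gene, at 3.94, Apcdd1 at -2.94, Ccnd1, the cyclin D1 gene, at 2.43, and Fosl1, an AP-1 subunit gene, at 2.34. Plaur, Ccnd1 and Fosl1 are also known to answer to growth factor signals, so the list holds genes with other inputs. Against IL-17A WT, 11.1% and 10.0% of all genes were called in Il17rc KO and Il17rd KO. Of the list, 20.7% and 31.0% were called there. In this contrast 4 were higher and 2 lower in Il17rc KO, with Lgr5 at 2.13, Plaur at -2.08, Apcdd1 at 1.96 and Vegfa at 1.90, and 4 were higher and 5 lower in Il17rd KO, with Plaur at -3.01, Fosl1 at -1.83, Bmp4 at 1.82 and Mycn at -1.80. Between the knockouts 2 were higher and 1 lower in Il17rc KO, namely Lgr5 and Mycn, at 1.57 and 1.20, and Bmp4, at -1.85. These made up 10.3% of the list, where 4.24% of all genes were called.

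Some lists of differentiation, cell type and cell cycle genes had the order of libraries of Wnt4, Fzd6 and Sostdc1, and others did not. Of all genes, 19.7% were called between IL-17A WT and untreated WT. The shares of all genes called against IL-17A WT were 11.1% in Il17rc KO and 10.0% in Il17rd KO. Of 21 measured genes of the spinous and granular layers, 18 were lower and 0 higher with IL-17A in WT cells (85.7% called). In Il17rc KO 16 were higher and 1 lower than in IL-17A WT (80.95%), and in Il17rd KO 15 were higher and 0 lower (71.4%). Their summed level was 3321 CPM in Il17rc KO, 3524 CPM in Il17rd KO, 952 CPM in IL-17A WT and 7680 CPM in untreated WT, the same order of libraries as for Wnt4, Fzd6 and Sostdc1. Of 16 fibroblast markers 1 was higher and 11 were lower with IL-17A in WT cells (75.0%). In Il17rc KO 8 were higher and 1, Postn, lower than in IL-17A WT (56.25%). In Il17rd KO 11 were higher and 0 lower (68.75%). Their summed level was 203, 255, 224 and 311 CPM in Il17rc KO, Il17rd KO, IL-17A WT and untreated WT, most of it Vim, which other cells also express. Without Vim, left out after the sums were seen, it was 77.4, 105, 43.3 and 131 CPM, again the order of libraries of Wnt4, Fzd6 and Sostdc1. The defining fibroblast markers Dcn and Lum were not analysed here. Of 14 measured hair follicle genes 1 was higher and 7 were lower with IL-17A in WT cells, 7 were higher and 0 lower in Il17rc KO than in IL-17A WT, and 5 were higher and 1 lower in Il17rd KO than in IL-17A WT, with median log2 ratios of -0.95, 1.14 and 0.54 in these comparisons. Their sums ran from 11221 to 14482 CPM, mostly Krt17, and were 877, 665, 706 and 791 CPM without it in Il17rc KO, Il17rd KO, IL-17A WT and untreated WT. The inner root sheath keratins Krt25, Krt27 and Krt71 were not analysed here. Melanocyte markers were present in all libraries, with sums of 2103, 2280, 1660 and 2520 CPM, and 0 of 10 were higher and 2 were lower with IL-17A in WT cells. Of 5 measured immune markers 0 were higher and 4 lower, with sums of 7.18, 24.1, 24.8 and 55.1 CPM, mostly Lyz2 in the last 3, and 3.84, 7.11, 4.599 and 13.6 CPM without it. Of 5 endothelial and mural markers 1 was higher and 0 were lower, with a median log2 ratio of 0.47. Acta2 made up most of their sums of 261, 387, 324 and 579 CPM, which were 42.4, 32.5, 49.2 and 45.8 CPM without it, so the sum was lower and the median higher in IL-17A WT than untreated WT. Of 15 basal keratinocyte genes 3 were higher and 3 lower, with sums from 39387 to 49187 CPM. Of 30 cell cycle genes 26 were higher and 0 lower with IL-17A in WT cells, with sums of 4470, 2655, 2542 and 982 CPM. Against IL-17A WT, 12 of them were higher and 0 lower in Il17rc KO, and 1 was higher and 1 lower in Il17rd KO. In the same contrasts immune markers had 1 higher and 3 lower in Il17rc KO, and 2 higher and 0 lower in Il17rd KO. Basal genes had 2 higher and 3 lower in Il17rc KO, and 2 higher and 4 lower in Il17rd KO. Endothelial and mural markers had 0 higher and 2 lower in Il17rc KO, and 0 higher and 1 lower in Il17rd KO. Melanocyte markers had 1 higher and 0 lower in each. No measured marker of these lists had 0 counts in a library. Every deposited gene exceeds 1 CPM in at least 2 libraries, so this was largely set in advance. The immune markers Ptprc, Cd74, Cd207, Tyrobp, Fcer1g and Cd3e were not analysed here. The same holds for the endothelial and mural markers Cdh5, Tek, Emcn, Rgs5 and Plvap. What part the shifts of these lists had in the Wnt pathway results was not tested.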

How the data were processed

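RNA-seq was available for 4 libraries of mouse keratinocytes, 1 per group. Trim Galore 0.4.4, HISAT2, Subread featureCounts, edgeR and build mm10 are listed per the submitters' processing notes. The sources used here do not give their order, settings, annotation or strand setting. The authors deposited raw counts per gene and FPKM values. Every deposited gene exceeds 1 CPM in at least 2 libraries. The deposited FPKM values imply the same library size ratios as the TMM-scaled counts. There were 17 symbols turned into dates, none of them used.

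The members and gene lists were chosen with earlier results of these data known. Library sizes were scaled with TMM (edgeR 4.0.16). Ratios carry exact 95% conditional binomial (Clopper-Pearson) intervals, and levels exact Poisson intervals. Reads are not independent molecules, so both cover counting error only. Log2 ratios use a prior count of 2. Calls need a 2-fold ratio and an interval excluding 1, among 12934 genes whose mean reached 1 CPM. The rule was tested on data simulated with counting error only, which cannot show how it fares with spread between cultures. Named are all genes called in the first 4 comparisons, those highest in FPKM, and up to 4 called genes per list and comparison; further members were named after their values were seen. Symbols were matched to GENCODE M21 (GRCm38), and similar transcripts were sought with BLAST+ 2.17.0 at 95% identity over 50% of either sequence. Such matches of Wnt4 and Apc were short RNA genes covering at most 6.44% of the transcript. Promoters are from RefSeq (GRCm38.p6). Alternatives were other scalings, filters, thresholds and the FPKM ratios.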

Additional observations from a re-analysis of the deposited data

Results flagged for a closer look

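Relative to the shared IL-17A WT library, 3 of the 46 genes lay on opposite sides in the knockouts with both counting intervals excluding 1. The share of all genes that did so was not computed, and at high counts the interval excludes 1 for small ratios too. Whether the knockouts differ beyond the spread between cultures was not tested. Wnt10b was 0.826 times the IL-17A WT level in Il17rc KO and 2.08 times in Il17rd KO. For Wls these ratios were 0.928 in Il17rc KO and 1.21 in Il17rd KO, and for Gsk3b 1.05 in Il17rc KO and 0.925 in Il17rd KO, both far under the size called.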

How the results depend on the processing

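No paired analysis was possible because each group has 1 library, and for the same reason no library could be left out. Of 168 alternative values for the counts and medians of the 46 genes, 153 stayed within 1.5 times the count or within the interval of the median. With library totals, RLE size factors, no filter, the deposited FPKM, and without the 4 genes with a near-identical copy, all counts and medians did so. All 46 genes passed the filter, and the FPKM imply the TMM library sizes. Leaving out the filter or using the FPKM could therefore not move a count. This also held with a prior count of 0.5 for the medians, and for 2 alternatives chosen after seeing the data, 2-fold on the log2 ratio and leaving out 10 genes with exon overlaps. With a threshold of 1.5-fold, higher genes numbered 5 in IL-17A WT over untreated WT, 13 in each knockout over IL-17A WT, and 1 and 2 in Il17rc KO and Il17rd KO over untreated WT; lower ones numbered 8 in Il17rc KO against Il17rd KO, 17 in Il17rc KO against untreated WT and 8 in Il17rd KO against untreated WT. With the whole interval beyond 2-fold, 1 gene was higher in IL-17A WT than untreated WT, 0 were higher and 2 lower in Il17rc KO than in Il17rd KO, and 3 were lower in Il17rd KO than in untreated WT. With a mean of at least 10 CPM, 1 was higher in IL-17A WT than untreated WT, and 0 were higher and 2 lower in Il17rc KO than in Il17rd KO. These shifts follow from the thresholds themselves. Under library totals, RLE size factors and the deposited FPKM, 389 of 396 values of called genes kept their label and none reversed. These values include comparisons in which the gene was not called. The 132 FPKM values could not change, for the reason given above. Library totals ended a call of Lgr4, Tcf7, Wnt6 and Wnt9a and added one of Dkk3, and RLE size factors added one of Dkk3 and of Wnt11. At about 20 to 60 counts, as for Lgr5, Wnt3a and Fzd4, intervals span 2-fold or more.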
